A study of Mus musculus with 8 samples.

Results

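Cyclic GMP is made by guanylate cyclases and destroyed by phosphodiesterases, so the phosphodiesterases of a tissue set how long a cGMP signal lasts. The 9 genes described here are Pde1a, Pde1b, Pde1c, Pde2a, Pde3a, Pde3b, Pde5a, Pde9a and Pde10a. They were taken by symbol as phosphodiesterase genes whose enzymes degrade cGMP or are controlled by it, and are not all such genes. All 9 had a row in the tables, among 24848 genes, and all 9 passed the filter on low counts that left 13569 genes for testing. The label covers unlike enzymes: those of Pde5a and Pde9a prefer cGMP, those of Pde1, Pde2a and Pde10a cleave both cGMP and cAMP, and those of Pde3 mainly cleave cAMP and are inhibited by cGMP.

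Expression was measured by RNA sequencing of ischemic tibialis anterior, a leg muscle, in 4 placebo and 4 praliciguat libraries. Every animal was a male Leprdb/db mouse, a line without a working leptin receptor that becomes obese and diabetic, and every animal had surgery that cut blood flow to a hind limb (hind limb ischemia). Praliciguat, which stimulates soluble guanylate cyclase, was given in chow at 75 ppm, an amount meant to match peak plasma levels under oral dosing at 10 mg/kg/day. Placebo animals ate chow without it. The diets ran for 31 days from day -3, and muscle was taken 28 days after surgery. The ages of the animals are not given in the sources used here, and muscle without ischemia was not analysed here. Whether the libraries come from separate mice is not stated, so p-values reflect library-to-library spread, which may be partly technical. The numbers in the sample titles fall into a lower range (replicates 1 and 2 of each group) and an upper range (replicates 3 and 4), of unstated meaning, and the group difference is also given inside each range. Whole pieces of muscle were sequenced, so fewer cells of a type and less RNA per cell cannot be told apart.

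Library totals ran from 21099764 to 31896205 expected counts. Markers of fast fibres, the main fibres of this muscle, summed to between 176431 and 195945 TPM (reads scaled by transcript length and library total) in every library, and no marker of endothelium, smooth muscle and pericytes, fibres, macrophages, fibroblasts, adipocytes, Schwann cells or red blood cells was at 0 throughout. Praliciguat replicate 3 held the most macrophage markers (1303 TPM over 9 genes, against 105 to 422 in the other libraries) and the most fibroblast markers (2598 TPM over 7 genes, against 465 to 1377). Values that this library moved are given beside those of the other libraries.

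Phosphodiesterases share a catalytic core in which histidines and aspartates hold metal ions. The coding stretch of that metal site is shown because it lets the relationship of the 9 genes be seen at the base level. The pattern searched in frame was CAT or CAC, GAT or GAC, any 2 codons, CAT or CAC, any 4 codons, then AAT or AAC. It was found once in the longest coding transcript of each gene that holds it, and in 34 of 21562 coding genes overall (0.158%), of which 19 have a Pde symbol. The 30 bases are printed 5′ to 3′ from GENCODE M21 transcripts (GRCm38, the assembly of mm10), with the fixed codons in capitals.
Pde1a: CATGATtatgagCACacaggaacaacaAAC
Pde1b: CATGACtatgagCACacaggcacaaccAAC
Pde1c: CATGACtatgaaCATactggaactacaAAC
Pde2a: CATGACctggacCACagaggcacaaacAAC
Pde3a: CATGACtacgatCACccagggaggacaAAT
Pde3b: CACGATtacgatCACccaggaagaacaAAT
Pde5a: CATGACttggatCATcgtggcgtgaacAAC
Pde9a: CATGACctggacCACccagggtacaacAAT
Pde10a: CATGACctggacCACaggggcttcagtAAC

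Between pairs of the 9 genes, 14 to 27 of the 30 bases were identical. The closest pairs were Pde1a with Pde1b (27 bases), Pde3a with Pde3b (26 bases) and Pde1a with Pde1c (25 bases). Pde1b with Pde1c, Pde2a with Pde10a, Pde1a with Pde3b and Pde1b with Pde2a followed with 24 bases each, so pairs from different families were as alike as some within the Pde1 family. Even the closest pairs thus differ within a stretch far shorter than a transcript. The expected counts of all 9 genes were whole numbers in all 8 libraries (tolerance 0.001), so no fraction of a read was assigned to them. This is not particular to the 9 genes. Over all genes, only 0.765% to 0.930% had a count that was not whole, depending on the library.

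Pde2a, whose enzyme is switched on by cGMP itself, was by far the most abundant of the 9 genes. It lies on chromosome 7 from 101421691 to 101512829. Its level was 37.7, 34.4, 35.6 and 28.8 TPM in placebo replicates 1 to 4 and 36.8, 33.8, 32.05 and 32.3 TPM in praliciguat replicates 1 to 4. The 2 groups lay in the same range. Pde2a made up 73.4 ± 1.11% of the summed TPM of the 9 genes in placebo and 71.1 ± 7.50% with praliciguat (SD, n = 4 each). The one library well below the others was praliciguat replicate 3, where its share was 60.2% and that of Pde3b 16.95%. Without it the mean praliciguat share of Pde2a was 74.7%, above rather than below the placebo mean. In GENCODE M21, 3955 exonic bases of Pde2a also belong to the gene model Gm45837 on the same strand, which has no row in the tables.

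The other 8 genes were low. Their placebo means ran from 2.97 ± 1.71 TPM for Pde3b down to 0.268 ± 0.0991 TPM for Pde1c (SD, n = 4). In placebo the order after Pde2a was Pde3b, Pde9a, Pde1b, Pde5a, Pde1a, Pde10a, Pde3a and Pde1c. The ranges over libraries were apart between Pde2a and Pde3b and between Pde10a and Pde3a, and all other neighbours in this order overlapped. With praliciguat the ranges were apart between Pde2a and Pde3b and between Pde5a (1.34 ± 0.120 TPM) and Pde10a (0.620 ± 0.149 TPM), while Pde10a and Pde3a (0.493 ± 0.192 TPM) overlapped. Of the genes tested, 77.9% had a lower placebo mean TPM than Pde2a, 26.7% a lower one than Pde3b and 2.20% a lower one than Pde1c.

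**Figure D1:**
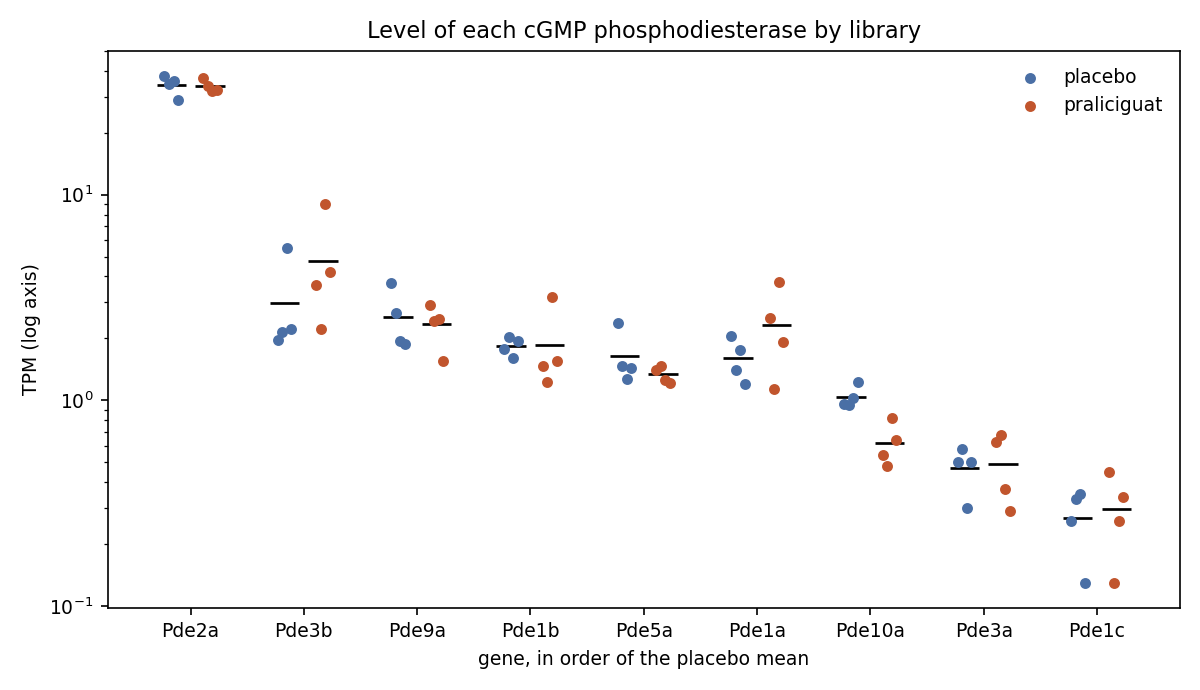
Level of each gene in TPM on a log axis, in order of the placebo mean; each point is 1 library and each black line a group mean of 4 libraries. Pde2a sits near 34 TPM in both groups, and the other 8 genes have group means of 4.77 TPM or less.

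Summed over the 9 genes, the level was 46.5 ± 5.29 TPM in placebo (39.3 to 51.3) and 47.8 ± 4.76 TPM with praliciguat (43.5 to 53.2; SD, n = 4). Without Pde2a the sums were 12.4 ± 1.59 TPM in placebo (10.5 to 13.8) and 14.1 ± 4.98 TPM with praliciguat. The higher praliciguat mean came from replicate 3, at 21.2 TPM, and the other praliciguat libraries lay at 13.5, 9.77 and 11.8 TPM, none above the placebo range. The 8 cAMP phosphodiesterase genes Pde4a to Pde4d, Pde7a, Pde7b, Pde8a and Pde8b summed to 264 ± 39.5 TPM in placebo and 260 ± 45.8 TPM with praliciguat. In every library this sum was above the sum of the 9 genes.

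The comparison of praliciguat with placebo asks which of these transcripts differ between muscle from animals given the drug and animals given placebo chow. The data used here hold no measurement of cGMP. None of the 9 genes passed the edgeR quasi-likelihood test over all 13569 genes at a Benjamini-Hochberg adjusted p under 0.05, where 0 genes in all (0%) passed. DESeq2 and limma-voom also called 0 of the 9. At an unadjusted p under 0.05 in edgeR 1 of the 9 was lower, Pde10a, and 0 were higher. Of all genes tested 5.73% had such a p, 3.78% lower and 1.95% higher. The fold change was above 0 in 6 of the 9 and below 0 in 3, with a median log2 fold change of 0.06, against 0.02 over all genes tested. In 1 of the 9, Pde10a, the highest praliciguat library was below the lowest placebo library. Such separation in either direction was found in 3.86% of all genes tested, and in the lower direction in 2.54%.

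**Figure D2:**
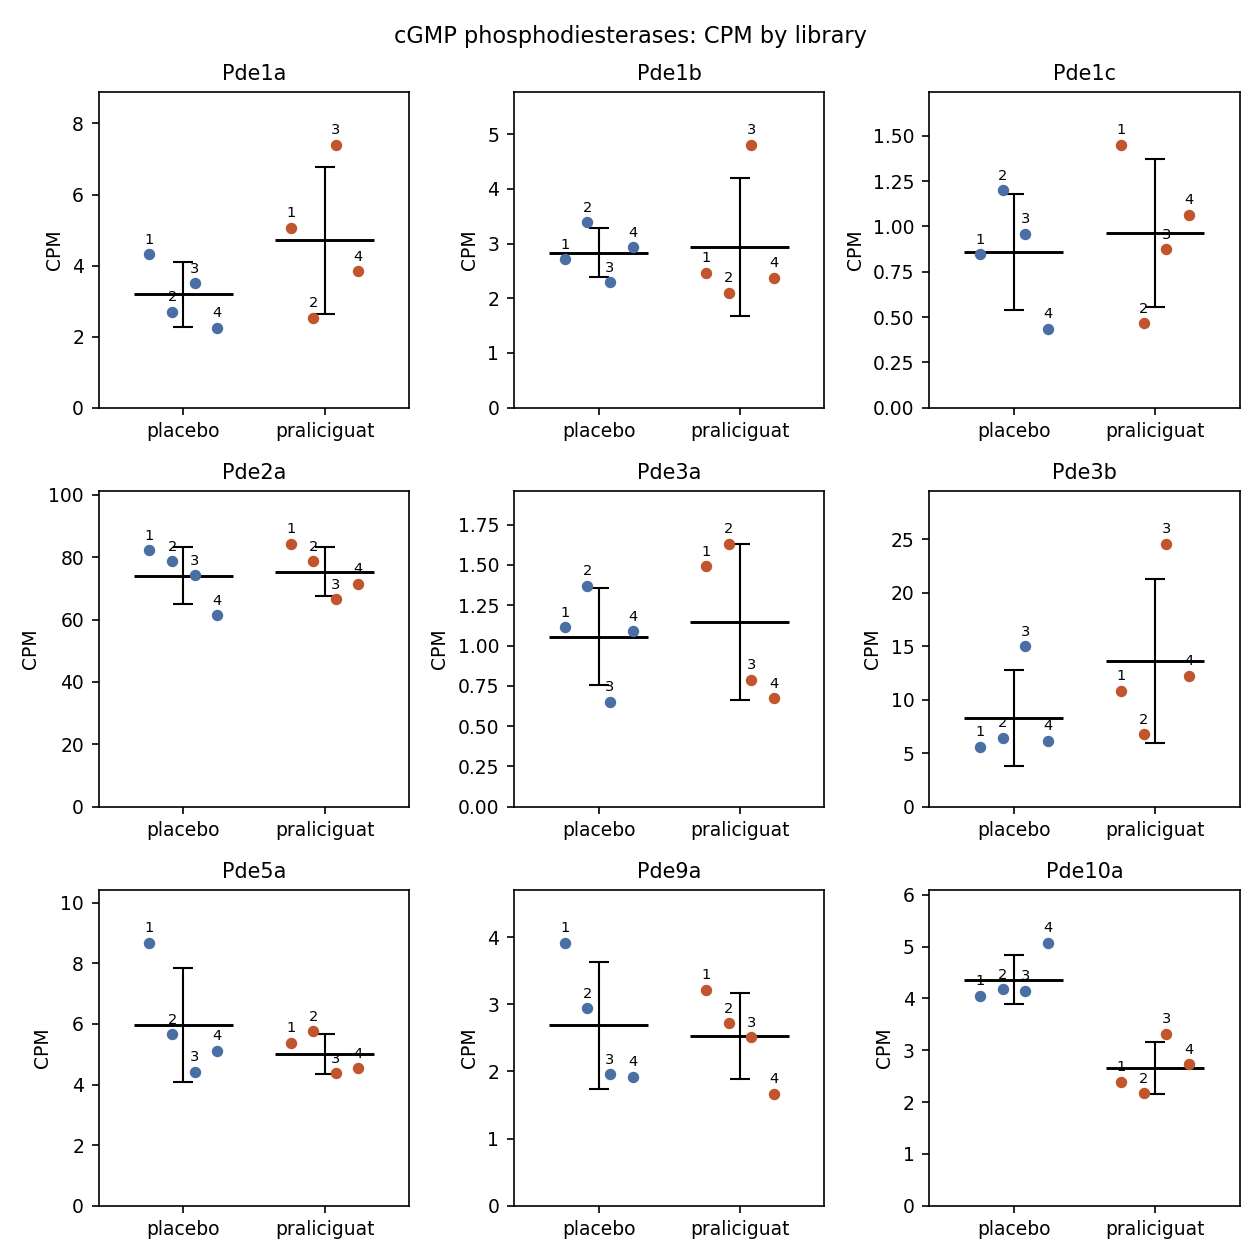
Read counts of each gene scaled to library size (CPM), by library, numbered by replicate; the long line is the mean of 4 libraries and the bar its SD. The groups are apart for Pde10a (2.18 to 3.32 CPM with praliciguat, 4.05 to 5.08 CPM in placebo) and overlap for the other 8 genes.

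Among the 9 genes, Pde5a and Pde9a encode the enzymes selective for cGMP, and Pde5a, the target of sildenafil, is typical of vascular smooth muscle. Pde5a lies on chromosome 3 from 122729158 to 122859374. It was at 8.69, 5.65, 4.43 and 5.12 CPM in placebo replicates 1 to 4 and at 5.37, 5.75, 4.37 and 4.54 CPM in praliciguat replicates 1 to 4. The high value is placebo replicate 1, and the other 7 libraries lay between 4.37 and 5.75 CPM. The 95% interval of the log2 fold change, -0.75 to 0.25, includes 0 (edgeR adjusted p = 0.984). On the log2 scale the group difference was -0.33 in the lower title range and -0.09 in the upper one. With placebo replicate 1 left out the log2 fold change was -0.010 (edgeR unadjusted p = 0.955). That library also had the highest sum of smooth muscle and pericyte markers, 858 TPM over 11 genes, against 569 to 670 TPM in the other placebo libraries and 472 to 621 TPM with praliciguat. It was likewise the highest library for endothelial (513 TPM), Schwann cell (335 TPM) and slow fibre markers (3241 TPM). Fast fibre, macrophage, fibroblast, adipocyte and red blood cell sums were highest in other libraries. The part of any of these cell types in the Pde5a value was not tested.

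Pde9a, on chromosome 17 from 31386105 to 31476309, encodes the enzyme with high affinity for cGMP. It was at 3.92, 2.95, 1.96 and 1.92 CPM in placebo and 3.22, 2.72, 2.51 and 1.67 CPM with praliciguat. The groups overlapped throughout, with a log2 fold change of -0.08 and a 95% interval from -0.76 to 0.59. By title range the log2 difference was -0.20 in the lower and 0.08 in the upper. Placebo replicate 1 was again the highest library, and without it the log2 fold change was 0.16. Its profile over the 8 libraries was most like that of Gucy1a1, the alpha subunit of soluble guanylate cyclase. The measure is the root mean square difference of log2 CPM profiles standardised over the libraries (0.172), and with 8 libraries and 13569 genes some genes match closely by number alone.

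The Pde1 genes encode enzymes that calcium and calmodulin activate. Pde1a was at 4.32, 2.71, 3.50 and 2.25 CPM in placebo replicates 1 to 4 and at 5.06, 2.53, 7.405 and 3.83 CPM in praliciguat replicates 1 to 4. Praliciguat replicate 3 was the highest library, and praliciguat replicates 2 and 4 lay within the placebo range. The log2 fold change was 0.57 ± 0.34 (SE; 95% interval -0.20 to 1.32; edgeR adjusted p = 0.976). It fell to 0.26 without praliciguat replicate 3 and was 0.77 without praliciguat replicate 2 (edgeR unadjusted p = 0.0295, adjusted p = 0.723). The group difference was 0.06 on the log2 scale in the lower title range and 0.91 in the upper one.

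Pde1b was at 2.72, 3.39, 2.30 and 2.94 CPM in placebo and 2.47, 2.10, 4.81 and 2.38 CPM with praliciguat. A single library, praliciguat replicate 3, was high, and the other 3 praliciguat libraries lay between 2.10 and 2.47 CPM. Over all libraries the log2 fold change was 0.06 ± 0.29 (SE), and without that library it was -0.29 ± 0.22 (edgeR adjusted p = 0.741). For Pde1b the log2 difference was -0.40 in the lower title range and 0.37 in the upper one. Pde1c had the fewest reads of the 9 genes, with 12 to 37 counts a library. It was at 0.846, 1.199, 0.961 and 0.435 CPM in placebo and 1.45, 0.466, 0.875 and 1.06 CPM with praliciguat. The 95% interval of its log2 fold change, -0.78 to 1.10, includes sizeable changes in either direction. Its log2 difference was -0.25 in the lower title range and 0.52 in the upper one.

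Pde2a had the narrowest interval of the 9 genes. It was at 82.2, 78.7, 74.2 and 61.4 CPM in placebo and at 84.4, 78.8, 66.5 and 71.5 CPM with praliciguat, from 1692 to 2298 counts a library. The log2 fold change was 0.02 ± 0.12 (SE) with a 95% interval from -0.24 to 0.29, and edgeR's adjusted p was 0.996. By title range the log2 difference was 0.02 in the lower and 0.03 in the upper. The spread within each group was small, at 12.3% of the mean in placebo and 10.5% with praliciguat, whereas that of Pde3b was 54.0% and 56.4%. The gene of closest profile was Apol10b, an apolipoprotein L gene (root mean square difference 0.0673), followed by Anapc13, a subunit of the anaphase-promoting complex (0.275).

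The Pde3 genes encode the cGMP-inhibited enzymes: Pde3a is known from heart, platelets and vascular muscle, and Pde3b from fat and liver, where insulin activates it to restrain lipolysis. Pde3a was at 1.11, 1.37, 0.652 and 1.09 CPM in placebo and at 1.49, 1.63, 0.787 and 0.674 CPM with praliciguat. In both groups the lowest library was in the upper title range, where praliciguat replicates 3 and 4 were the lowest of their group. The group difference on the log2 scale was 0.32 in the lower title range and -0.20 in the upper one. The overall log2 fold change was 0.11 (95% interval -0.74 to 0.96).

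Pde3b lies on chromosome 7 from 114415222 to 114537938. It was at 5.61, 6.44, 15.03 and 6.17 CPM in placebo replicates 1 to 4 and at 10.8, 6.80, 24.6 and 12.2 CPM in praliciguat replicates 1 to 4. Replicate 3 was the highest library in each group, and the groups overlapped. The log2 fold change was 0.71 ± 0.45 (SE; 95% interval -0.31 to 1.73; edgeR adjusted p = 0.984), with 0.51 in the lower title range and 0.84 in the upper one. It depended on single libraries, at 0.26 without praliciguat replicate 3 (edgeR unadjusted p = 0.504) and 1.16 without placebo replicate 3 (edgeR unadjusted p = 0.0193, adjusted p = 0.601, the lowest of the 8 leave-out fits).

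Adipocyte, macrophage and fibroblast markers were, like Pde3b, highest in replicate 3 of each group. The 8 adipocyte markers summed to 1545 to 3812 TPM in placebo and 2036 to 5746 TPM with praliciguat. All 8 had a fold change above 0, and 0 of them had an unadjusted p under 0.05. Of all genes tested, 7486 of 13569 were above 0, and 1.95% were higher at that p in edgeR. Adipoq, which encodes the fat hormone adiponectin and was singled out after its values were seen, was at 140 ± 117 TPM in placebo and 290.1 ± 183 TPM with praliciguat (SD, n = 4), with overlap. The 9 macrophage markers summed to 145 to 422 TPM in placebo and 105 to 1303 TPM with praliciguat, and all 9 were above 0 with 0 at an unadjusted p under 0.05. The 7 fibroblast markers summed to 820 to 1377 TPM in placebo and 465 to 2598 TPM with praliciguat. In praliciguat replicate 1 Pde3b was at 10.8 CPM. There adipocyte markers were at 3423 TPM, within the placebo range, macrophage markers at 180 TPM and fibroblast markers at 698 TPM. In praliciguat replicate 4, with Pde3b at 12.2 CPM, the same sums were 4017, 260 and 978 TPM. In praliciguat replicate 2, with Pde3b at 6.80 CPM, they were 2036, 105 and 465 TPM. The part of these cells in the Pde3b values was not tested. A gene of close profile to Pde3b was Xkr8, a phospholipid scramblase (root mean square difference 0.219).

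**Figure D3:**
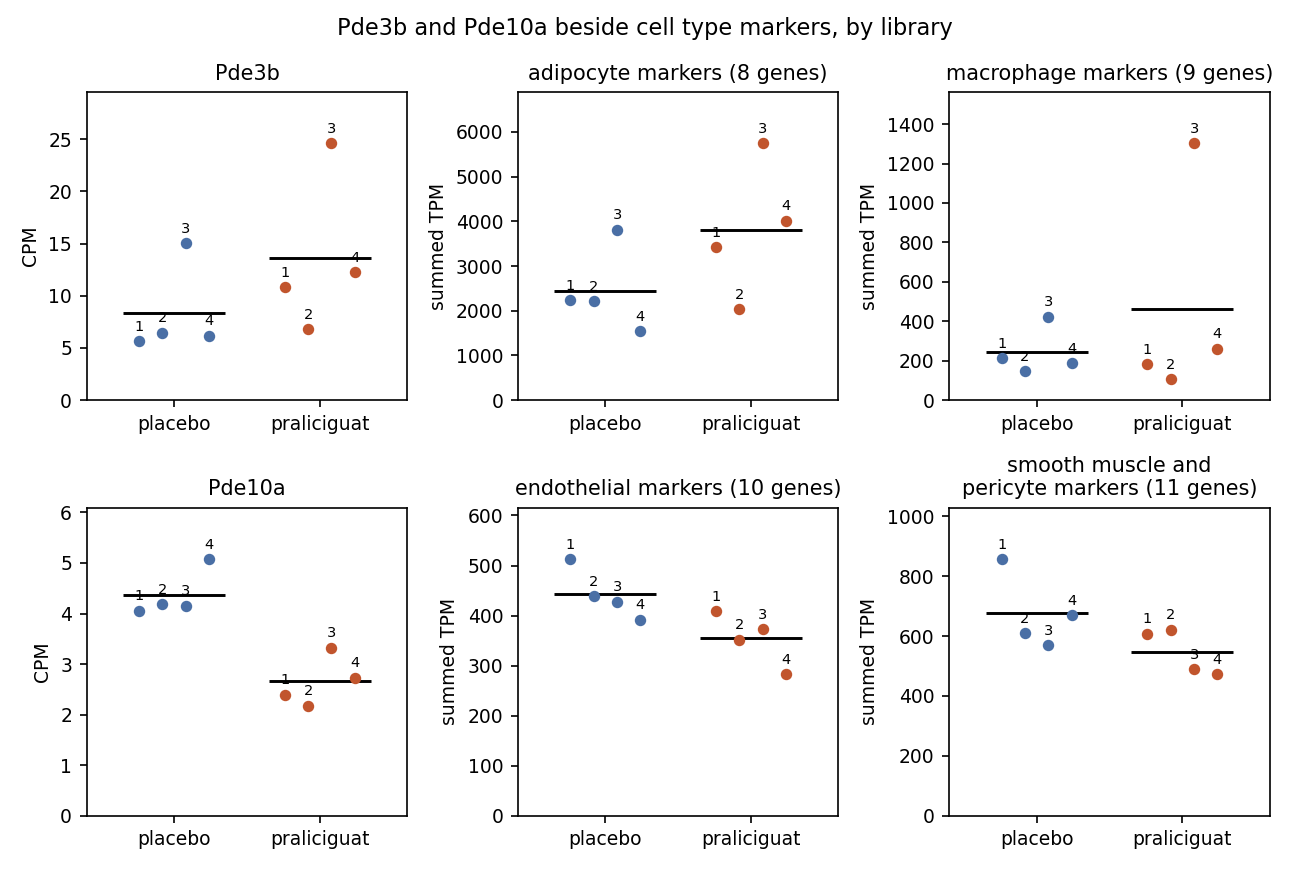
Pde3b and Pde10a in CPM beside summed TPM of cell type markers, by library; numbers are replicates and lines are means of 4 libraries. Replicate 3 is the highest library of each group for Pde3b, adipocyte and macrophage markers; endothelial sums are 392 to 513 TPM in placebo and 283 to 409 TPM with praliciguat.

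Pde10a, best known from striatal neurons of the brain, encodes an enzyme that cleaves both cGMP and cAMP. It spans chromosome 17 from 8525187 to 8986648. It was at 4.05, 4.18, 4.15 and 5.08 CPM in placebo replicates 1 to 4 and at 2.39, 2.18, 3.32 and 2.73 CPM in praliciguat replicates 1 to 4. Every praliciguat library lay below every placebo library. These values rest on 91 to 140 counts a library in placebo and 56 to 114 counts with praliciguat. Per length the level was 1.04 ± 0.130 TPM in placebo and 0.620 ± 0.149 TPM with praliciguat (SD, n = 4), and the groups did not overlap on that scale either.

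The log2 fold change of Pde10a was -0.71 ± 0.19 (SE; 95% interval -1.14 to -0.29), a 1.64-fold lower level. Its unadjusted edgeR p of 0.00420 ranked 147 among the 13569 genes, and the adjusted p was 0.385. DESeq2 gave an adjusted p of 0.0677 and limma-voom 0.349. On the log2 scale the difference was -0.83 in the lower title range and -0.60 in the upper one. With 1 library left out the log2 fold change stayed between -0.84 and -0.63 (edgeR adjusted p 0.158 to 0.773).

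Several sets of cell type markers were also lower in the praliciguat group. All 10 endothelial markers had a fold change below 0, 5 of them at an unadjusted p under 0.05 and 0 at an adjusted p under 0.05, and their sum was 392 to 513 TPM in placebo against 283 to 409 TPM with praliciguat, with overlap. All 8 slow fibre markers were below 0, 7 of them at an unadjusted p under 0.05, and their sum was 1330 to 3241 TPM against 447 to 707 TPM, without overlap. Smooth muscle and pericyte markers were below 0 in 10 of 11 (2 at an unadjusted p under 0.05), Schwann cell markers in 7 of 7 and red blood cell markers in 5 of 5 (0 at that p in both). Of all genes tested, 3.78% were lower at that p in edgeR, and 6083 of 13569 were below 0. Single genes whose groups did not overlap in the lower direction made up 2.54%. Placebo replicate 4 had the highest Pde10a and the lowest placebo endothelial sum, with slow fibre markers at 2812 TPM. The part of these cells in the Pde10a value was not tested. The genes of closest profile were Fam43a (root mean square difference 0.173; log2 fold change -0.67) and Nhsl2 (0.191; -0.61).

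**Figure D4:**
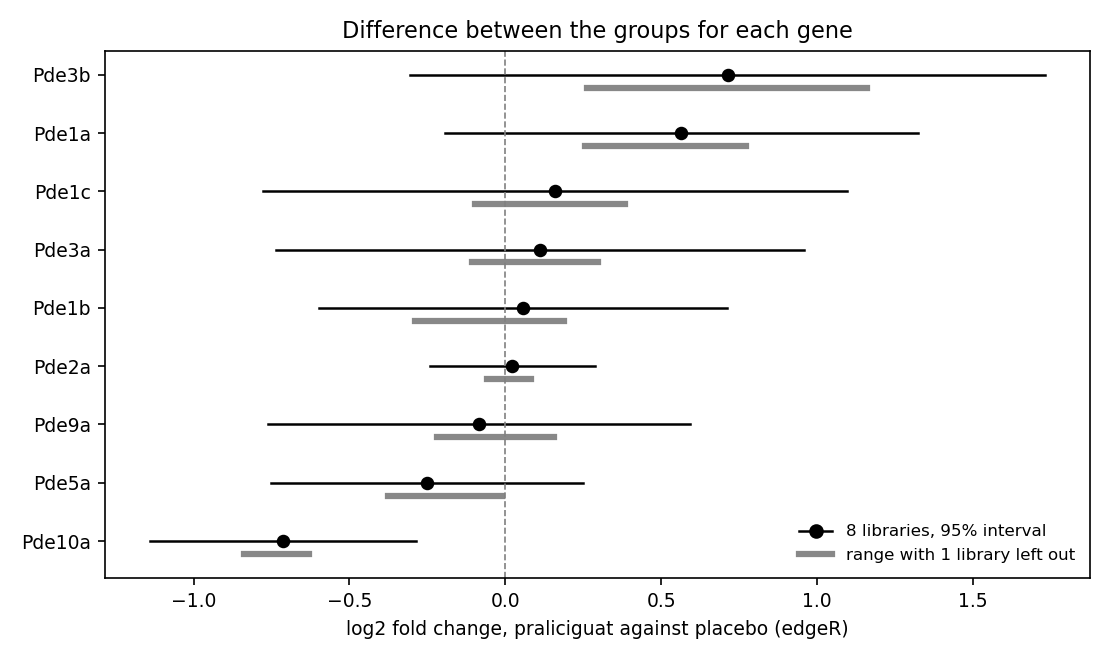
Log2 fold change of each gene, praliciguat against placebo, from edgeR; black points and lines are the estimate and 95% interval over 8 libraries, and grey bars the range when 1 library is left out. Only the interval of Pde10a (-1.14 to -0.29) excludes 0, before any adjustment for the number of genes tested.

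The closest profiles of the remaining members were unlike one another. Pde1a was closest to Zfyve21 (root mean square difference 0.223) and St3gal4 (0.238), Pde1b to Cbr3 (0.320) and Gli3 (0.349), and Pde1c to Uckl1 (0.268) and Isca2 (0.298). Pde3a was closest to Fbxw4 (0.172) and Rapgef2 (0.185), and Pde5a to Mcts2 (0.269) and Atp5h (0.292). Among the members themselves the most alike pairs were Pde5a with Pde9a (0.607) and Pde1a with Pde3b (0.680).

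For 6 of the genes there is more than 1 transcript in the tables, so the mix of isoforms was examined through the deposited gene length, which is averaged over the transcripts in use. These were Pde1a (8 transcripts), Pde1b (3), Pde1c (9), Pde2a (8), Pde9a (2) and Pde10a (3). For Pde10a the length was 7637 to 7742 bases in placebo and 7717 to 7744 bases with praliciguat. For Pde1a it was 3476 to 3944 bases against 3603 to 3909 bases, and for Pde2a 4078 to 4097 against 4065 to 4086 bases. The groups overlapped in all 6 genes, and they did not overlap in 2.59% of the 5567 tested genes whose length varied. The files hold no counts per isoform.

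The other phosphodiesterases, most of them selective for cAMP, were compared in the same fit. Of 15 such genes 10 were tested, and 0 passed at an adjusted p under 0.05 or at an unadjusted p under 0.05. Their levels ranged widely. The highest was Pde4d, given here for its level alone, at 105 ± 22.4 TPM in placebo and 99.7 ± 35.9 TPM with praliciguat. Pde4b, which limits cAMP in immune and muscle cells, was at 44.1 ± 11.6 TPM in placebo and 51.9 ± 18.8 TPM with praliciguat, and Pde4a at 37.6 ± 4.23 and 39.8 ± 7.31 TPM, whereas Pde8b was at 1.67 ± 0.263 and 1.3 ± 0.334 TPM (SD, n = 4). Their median log2 fold change was -0.08. Pde8b (-0.28 ± 0.24 SE), Pde4c (-0.21 ± 0.19), Pde4b (0.30 ± 0.30), Pde4a (0.13 ± 0.15) and Pde6g (-0.42 ± 0.54) had the lowest p. Pde11a, the remaining dual-specificity gene, and the photoreceptor genes Pde6a, Pde6b, Pde6c and Pde6h were too low to be tested.

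Of 31 genes tied to the making, sensing or export of cGMP, 27 were tested. At an unadjusted p under 0.05 in edgeR 4 were lower and 0 were higher, and 0 passed after adjustment. Among all genes tested 3.78% were lower at that p. The median log2 fold change of the 27 was -0.23 and 23 were below 0, against 0.02 and 6083 of 13569 over all genes tested. Such a shift was not particular to this list. The median was -0.22 for smooth muscle and pericyte markers (10 of 11 below 0) and -0.33 for endothelial markers (10 of 10). It was 0.77 for macrophage and 0.94 for adipocyte markers. The part of cell types in the shift was not tested. Nos3, the endothelial nitric oxide synthase, Ostn and Nos2 were listed with the genes that make cGMP but do not make it themselves. Nos3 was at 10.97 ± 1.47 TPM in placebo and 6.96 ± 0.646 TPM with praliciguat (log2 fold change -0.61, edgeR adjusted p = 0.212). Gucy1a1 and Gucy1b1, the subunits of soluble guanylate cyclase, which makes cGMP itself, had log2 fold changes of -0.09 and -0.11. Ostn, which encodes musclin, a muscle peptide that blocks the clearance receptor of natriuretic peptides, was at 51.2 ± 14.3 against 10.7 ± 4.87 TPM (-2.21, edgeR adjusted p = 0.122). Nos2, the inducible synthase, was at 3.98 ± 0.973 against 3.04 ± 0.214 TPM (-0.35). DESeq2 called Nos3 and Ostn lower, 2 of the 28 pathway genes to which it gave a p. Over all genes it called 113 of 18214 lower.

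Among the effectors, Prkg1, the cGMP-dependent kinase, was at 14.5 ± 3.50 against 11.5 ± 3.82 TPM (log2 fold change -0.27). For Prkg1 the log2 difference was 0.36 in the lower title range and -1.01 in the upper one. Itpr1, a calcium release channel of the endoplasmic reticulum that this kinase pathway restrains, was at 5.53 ± 0.800 against 3.91 ± 0.494 TPM (-0.46, edgeR adjusted p = 0.588). Cngb1, a subunit of a cyclic nucleotide-gated channel, was at 0.283 ± 0.0991 against 0.170 ± 0.0294 TPM (-0.83, edgeR adjusted p = 0.762). The exporters Abcc4 and Abcc5, which pump cyclic nucleotides out of cells, had log2 fold changes of -0.07 each.

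Regulators of the members and the enzymes that make cAMP, the second substrate of most of the group, completed the set. Of 14 regulators and partners all were tested, and 1 was lower at an unadjusted p under 0.05, with 0 after adjustment, where 5.73% of all genes tested had such a p in either direction. That gene was Pik3r6, the p87 subunit of phosphoinositide 3-kinase gamma that binds the Pde3b protein, at 3.13 ± 0.394 TPM in placebo and 2.36 ± 0.193 TPM with praliciguat (log2 fold change -0.38, edgeR adjusted p = 0.798). Calm3, a calmodulin gene, had 0.27 and Ywhab, a 14-3-3 gene, 0.25. Of 9 adenylate cyclases 8 were tested, and 1 was lower at an unadjusted p under 0.05 (3.78% of all genes tested). It was Adcy4, at 9.64 ± 1.11 against 5.83 ± 0.431 TPM, without overlap (-0.68, edgeR adjusted p = 0.122). DESeq2 called Adcy4 lower, 1 of 9 cyclases with a p, where it called 113 of 18214 genes lower. Adcy5 and Adcy3 had 0.43 and 0.53, with intervals that include 0. Adcy3 was at 9.88 CPM in praliciguat replicate 3, against 2.35, 2.64 and 3.94 CPM in praliciguat replicates 1, 2 and 4.

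**Figure D5:**
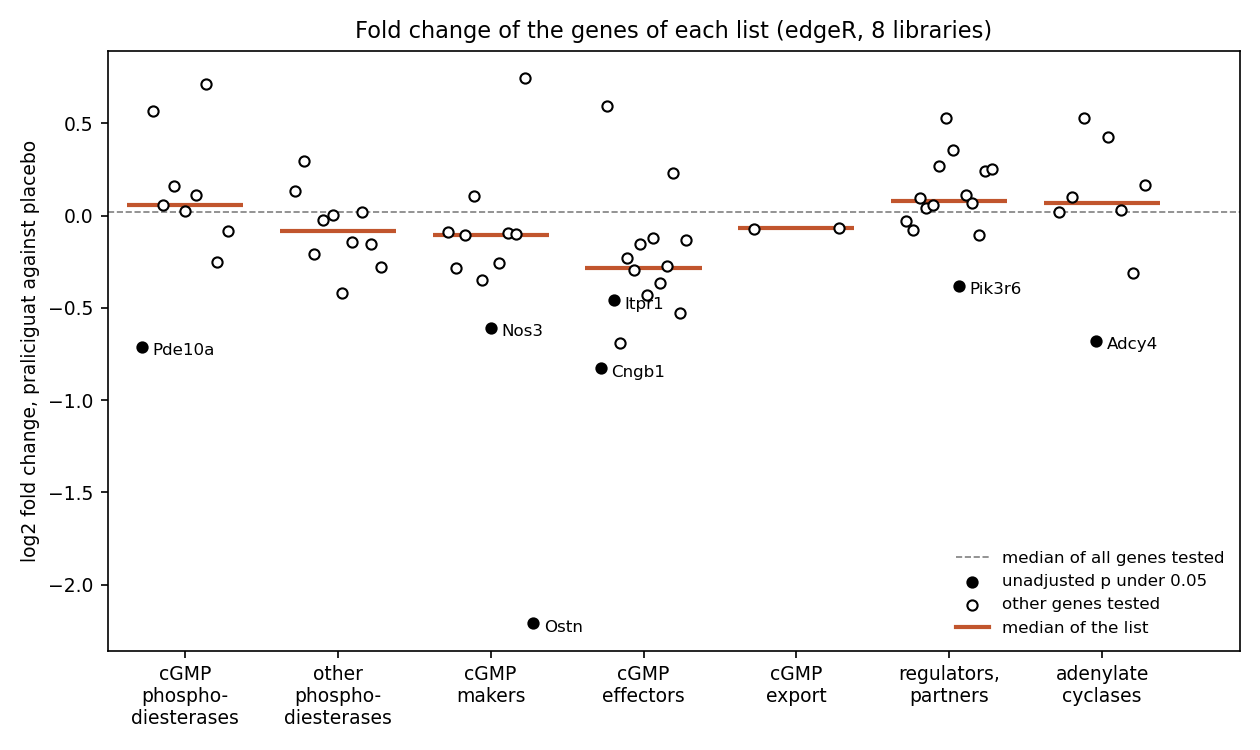
Log2 fold change of the tested genes of each list, praliciguat against placebo (edgeR); filled points have an unadjusted p under 0.05, orange lines are list medians and the dashed line is the median of all genes tested (0.02). Pde10a is the filled point among the 9 cGMP phosphodiesterases, and 4 genes of the cGMP makers and effectors lists are filled, all below 0. The makers list also holds genes that do not make cGMP themselves, among them Nos3 and Ostn.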

How the data were processed

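Libraries came from a stranded mRNA kit after Tri Reagent extraction, per the labels' protocols. STAR 2.5.3a and RSEM 1.2.28, with Trimmomatic and FastQC, were used on mm10, per the submitters' processing notes. No source used here states how RSEM was told about strand, so reads from antisense models that overlap exons of Pde3a, Pde5a and Pde9a cannot be told apart. Deposited expected counts, per the file headers, are RSEM's estimated reads per gene, and deposited TPM values are scaled by effective length to a common total per library. The deposited gene lengths and effective lengths, in bases, are RSEM's averages over isoforms; FPKM was not used.

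The test, on rounded expected counts, was edgeR 4.0.16 under R 4.3.3 (TMM scaling, filterByExpr, robust quasi-likelihood F test, Benjamini-Hochberg over 13569 genes, threshold 0.05, group as the one term). CPM is relative to the TMM-scaled library size; 95% intervals come from the test's standard error. A 0 count allows up to 0.0875 to 0.134 CPM (3 counts; counting error only). No libraries agreed within sampling noise (chi-square per degree of freedom at least 21.9 within groups, 13351 genes). In simulated counts over 13419 genes, edgeR recovered 60 of 96 genes changed by 1 and 89 of 98 changed by 2 on the log2 scale, with 9 unchanged genes called. The simulated counts were drawn independently from the fitted dispersions, with changes in randomly chosen genes. These shares check the code and do not give the power in the real libraries.

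Replicate numbers follow accession order and pair no samples. The lower and upper ranges of title numbers hold 2 libraries per group each. Members, gene lists, tests and the naming rule were chosen with earlier results of these data known. The rule named all 9 members, Gucy1a1, Gucy1b1, Prkg1, Nos3, Abcc4 and Abcc5, then the genes of lowest p in each list (5 other phosphodiesterases, 4 pathway genes, 3 regulators, 3 adenylate cyclases), and the 2 genes closest in profile to each member, passing over predicted genes and small RNAs; some genes the rule named are not reported here. The pathway list held Irag1 under its older symbol Mrvi1. Positions are RefSeq's on GRCm38.p6. The planned protein comparison was not made. Alternatives were other scalings and filters, DESeq2 1.42.0, limma 3.58.1 (voom, and log2 of TPM plus 1 or 0.1), non-robust dispersion, effective length as an offset, the title range as a term, and each library left out.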

Additional observations from a re-analysis of the deposited data

Results flagged for a closer look

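In 3 of 18 sets of 4 libraries (9 genes, 2 groups), 1 library lay far from the other 3 for a phosphodiesterase; Dixon's 95% critical value for the gap over the range marks about 1 set in 20 by chance. Pde3b was at 15.03 CPM in placebo replicate 3, against 5.61 to 6.44 CPM in the other placebo libraries. Pde1b was at 4.81 CPM in praliciguat replicate 3, against 2.10 to 2.47 CPM. Pde10a was at 5.08 CPM in placebo replicate 4, against 4.05 to 4.18 CPM, and without that library its log2 fold change was -0.63.

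Among the other 36 named genes, 3 of 72 sets were marked in the same way, all in placebo replicate 3. Xkr8 was at 2.30 CPM there (1.71 to 1.78 CPM in the others). Fbxw4 was at 18.01 CPM (24.6 to 25.8 CPM) and Itpr1 at 22.6 CPM (31.5 to 32.7 CPM). Xkr8 was named for its likeness to Pde3b and Fbxw4 for its likeness to Pde3a, so these are not separate from the values of those genes.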

How the results depend on the processing

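No phosphodiesterase was called under any of the 11 other settings or with any 1 library left out. The fold changes of Pde1a, Pde3b, Pde5a and Pde10a kept their sign in all 19 fits. With limma on log2(TPM + 1) and log2(TPM + 0.1), Pde1b turned to -0.031 and -0.071 and Pde2a to -0.0107 and -0.0109. With 1 library left out, Pde1b ranged from -0.29 to 0.19, Pde1c from -0.10 to 0.38, Pde2a from -0.059 to 0.082, Pde3a from -0.11 to 0.30 and Pde9a from -0.22 to 0.16; the cause was not tested. For Pde10a the other settings gave -0.72 to -0.34, the last with log2(TPM + 1), where the pseudocount shrinks low genes. Over all genes edgeR called 0 higher and 0 lower, with 778 at an unadjusted p under 0.05. DESeq2 called 13 higher and 113 lower, 2 of them in the pathway list, limma-voom called 2 lower, and edgeR with the title range as a term called 3 lower. With 1 library left out the number lower ranged from 0 to 5 (5 without placebo replicate 3). No paired analysis was possible because the replicate numbers were given in accession order. Counts were lowest for Pde1c and Pde3a, at 12 to 37 and 19 to 42 a library, but the largest standard error was that of Pde3b (0.45, 126 to 844 counts), so depth alone does not set the precision.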
